A study of Mus musculus with 8 samples.

Results

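Alox12b and Aloxe3 are neighbouring lipoxygenase genes on mouse chromosome 11, and their transcripts were followed here in the occipital cortex, which contains the visual cortex. They were taken by gene symbol from a table of 24344 genes (2 of 24344), each on 1 row, and were chosen by their FPKM values in this contrast, as neighbours that both stood higher after fasting. Their fasted and fed values are therefore given as a description, with no test. RNA was sequenced from cortex homogenates of C57BL/6J mice at postnatal day 35, in 4 libraries from mice kept without food for 48 h and 4 from mice fed ad libitum (called fed below). All 8 libraries come from the same strain, age and tissue, and no genetic change is named in the labels. The labels do not say whether each library is from 1 animal, so the p-values measure the spread between these libraries.

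Lipoxygenases are iron enzymes that insert oxygen into polyunsaturated fatty acids. In the outer epidermis the enzymes encoded by Alox12b and Aloxe3 act in sequence on linoleate carried in acylceramides: the former makes a hydroperoxide, and the latter turns it into an epoxyalcohol. The products are used to build the lipid envelope of the cornified cell, and inherited loss of either gene is known to cause ichthyosis. Both are best known from skin, not from cortex.

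In the GENCODE M21 annotation (GRCm38, the assembly also called mm10), Aloxe3 (ENSMUSG00000020892.10) spans chr11:69125896-69149115 and Alox12b (ENSMUSG00000032807.5) spans chr11:69156989-69169792. Both are on the plus strand, with 7873 bp between them and no other annotated gene overlapping either. Alox12b has 1 annotated transcript, of 2431 nt in 15 exons. Aloxe3 has 6, of which 1 is the full protein-coding form, of 3019 nt in 15 exons, 4 are retained-intron forms and 1 is a form subject to nonsense-mediated decay. A level per gene does not say which of these was present.

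The coding sequences of the genes matched at 63% of 2088 aligned positions. Fragments of one could in principle be assigned to the other where the sequences are locally identical or nearly so. The longest identical run was 29 nt, and the transcripts shared 0 stretches of 30 nt on either strand. Stretches that match but for a few bases were not searched. The run is shown with its surroundings, in capitals, since it bears on whether the values below can be told apart. Positions are counted from the start codon, from 763 to 822 in Alox12b and from 793 to 852 in Aloxe3.
Alox12b: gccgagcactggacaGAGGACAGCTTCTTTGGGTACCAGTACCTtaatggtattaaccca
Aloxe3: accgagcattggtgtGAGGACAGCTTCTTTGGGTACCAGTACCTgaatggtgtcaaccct
Outside the capitals the segments differ at several bases, and the same is true of the rest of the coding sequences.

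Among the libraries fed replicate 3 stood apart. It held the X-inactivation transcript Xist (32.2 FPKM) together with the Y-linked Ddx3y (5.67 FPKM), each at about the middle of its range. The other odd-numbered libraries held Ddx3y at 10.5 to 14.4 FPKM with Xist under 0.05, and the even-numbered libraries held Xist at 62.9 to 77.5 FPKM with Ddx3y under 0.03. FPKM count the fragments mapped to a gene per kilobase of its transcript and per unit of sequencing depth. The value of 1 fragment could be read from genes with few fragments, which put the libraries at about 17400000 to 21300000 fragments each. Cortical markers were present throughout, with Snap25, a synaptic vesicle fusion protein, at 1110 FPKM or more in each library.

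Alox12b, the gene of the hydroperoxide-forming enzyme, stood at 1.69, 1.17, 1.17 and 1.14 FPKM in fed replicates 1 to 4 and at 4.45, 4.06, 4.42 and 3.55 FPKM in fasted replicates 1 to 4. The groups did not overlap, and fed replicate 1 lay above the other 3 fed libraries. The means were 1.29 FPKM ± 0.268 (SD, n = 4) fed and 4.12 ± 0.422 (SD, n = 4) fasted, a ratio of 3.18. From the transcript length and the estimated value of 1 fragment, these levels correspond to about 52 to 79 fragments in a fed and 171 to 229 in a fasted library. Changes below are differences in log2(FPKM + 1), fasted minus fed, a scale that understates changes of low genes. On it Alox12b differed by 1.16 (SE 0.0913), which placed it at rank 13 from the top among 12377 tested genes. In a bulk homogenate more cells that express a gene and more RNA per cell cannot be told apart.

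Aloxe3, the gene of the epoxyalcohol-forming enzyme, stood at 1.79, 2.11, 2.17 and 2.002 FPKM in fed replicates 1 to 4. It stood at 3.35, 4.18, 3.08 and 2.77 FPKM in fasted replicates 1 to 4. Again the groups did not overlap, but the fasted libraries were more spread, with replicate 2 high. The means were 2.02 FPKM ± 0.166 (SD, n = 4) fed and 3.34 ± 0.606 (SD, n = 4) fasted, a ratio of 1.66. The log2 difference was 0.52 (SE 0.0940), at rank 138, and 0.43 without fasted replicate 2. Both genes are in the lower part of the tested genes by level, with 17.5% (Alox12b) and 17.3% (Aloxe3) of tested genes below them in mean FPKM.

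Both genes passed the filter for testing (a level of 1 FPKM reached in at least 4 libraries), and 2 of 2 were above the fed range in every fasted library. Of all tested genes, 11.1% were above the fed range in this way and 9.56% were called higher, so that a rise without overlap was common. These shares do not regard the size of the rise. Since the genes were chosen for it, nothing is read from the comparison with those shares. Without fed replicate 3 the log2 differences were 1.14 for Alox12b and 0.54 for Aloxe3. Within each replicate number the fasted library was above the fed one for both genes, which follows from groups that do not overlap. The ratio ran from 2.63 in number 1 to 3.78 in number 3 for Alox12b, and from 1.38 in number 4 to 1.98 in number 2 for Aloxe3, so that odd and even numbers overlapped.

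**Figure D1:**
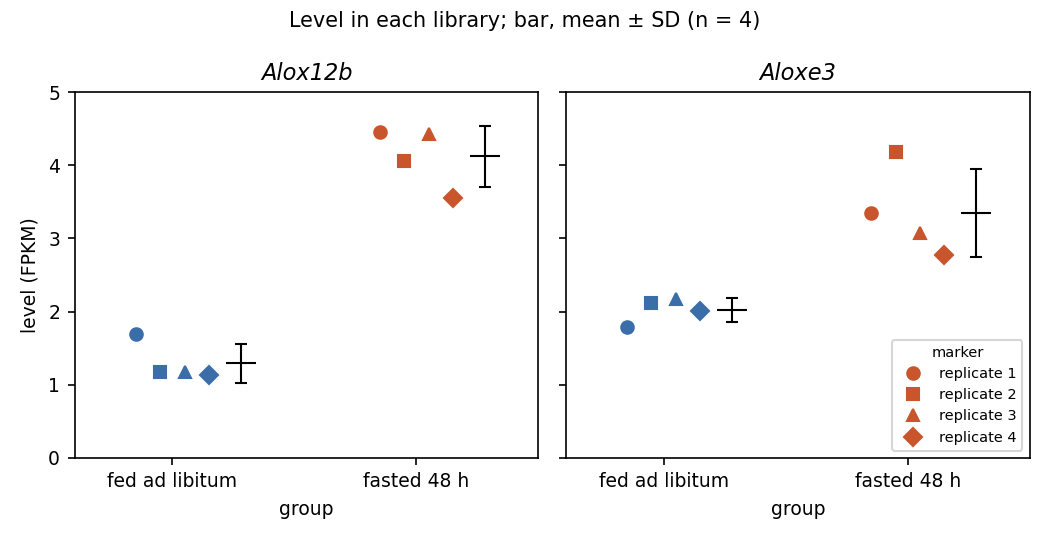
Level of each gene in FPKM (vertical axis, from 0) in the fed and fasted groups (horizontal axis); points are libraries, with the marker shape giving the replicate number, and bars are the mean ± SD (n = 4). Alox12b lies between 1.14 and 1.69 FPKM fed and between 3.55 and 4.45 FPKM fasted, while Aloxe3 lies between 1.79 and 2.17 FPKM fed and between 2.77 and 4.18 FPKM fasted.

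By their means in FPKM, the order of the genes differed between the groups. FPKM are per length, but the length used for each gene is not given in the sources used here. Aloxe3 has 6 annotated transcripts, so it is uncertain which gene stood higher in a library. A length that is the same in all libraries would leave the relative shift of the ratio between the groups unchanged. The ratio of the Alox12b level to the Aloxe3 level was 0.945, 0.557, 0.540 and 0.567 in fed replicates 1 to 4, below 1 in each. In fasted replicates 1 to 4 it was 1.33, 0.970, 1.44 and 1.28. It was above 1 in 3 of the 4 fasted libraries, the exception being replicate 2, where Aloxe3 was high. The lowest fasted ratio lay just above the highest fed one, that of replicate 1. The difference in change between the genes, 0.64 on the log2 scale, belongs to the contrast that chose them and was not tested.

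Once the group means were taken away, the levels of the genes were nearly uncorrelated in these 8 libraries. So few libraries, with about 52 to 79 Alox12b fragments in a fed one, cannot show whether the genes vary together. Over all 8 libraries their log2 levels correlated at Pearson's r = 0.866, which holds the difference between the groups, with Aloxe3 at rank 664 among the genes most like Alox12b. The deviations from the group means correlated at -0.092 (8 libraries, a description). Alox12b deviated most in fed replicate 1, upward, and in fasted replicate 4, downward. Aloxe3 deviated most in fasted replicate 2, upward, and was lowest of the fed group in replicate 1, where Alox12b was highest.

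By the likeness of their log2 levels over the 8 libraries, the 5 genes nearest to Alox12b were Galnt16, Trp53inp1, Hira, Armcx5 and AI854517, with r from 0.987 to 0.989. Likeness to a gene chosen for a step between the groups selects genes with that step, so the values of these genes are a description, with no test. Galnt16, which encodes a glycosyltransferase, was at 20.3 to 24.2 FPKM in fed libraries and at 36.8 to 42.8 FPKM in fasted ones (log2 difference 0.77). The log2 difference was 0.72 for Trp53inp1, a p53-induced gene, and 0.33 for the histone chaperone gene Hira. For Aloxe3 the nearest were Lss, Kmt2b, Inpp5k, Ttll3 and Itih3, with r from 0.965 to 0.992. Lss, the lanosterol synthase of sterol synthesis, had a log2 difference of 0.14. It was 0.84 for Itih3, which encodes an inhibitor heavy chain bound to hyaluronan, and 0.37 for the histone methyltransferase gene Kmt2b.

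By deviations from the group means, which leave the step out, the nearest genes differed between the members. For Alox12b they were Tcaim, Ahsa2, Vti1a, Emc3 and Mrpl46, with r from 0.962 to 0.975. Of these 5 genes 2 fell, Ahsa2 (log2 difference -0.19, limma adjusted p = 0.0255) and Vti1a (-0.33, limma adjusted p = 0.00203), and 0 rose. Over all tested genes 16.3% were called lower and 9.56% higher. The Ahsa2 call ended without fed replicate 1 (0.0738), fed replicate 3 (0.0562) or fasted replicate 4 (0.0686). With the replicate block Tcaim (-0.18, limma adjusted p = 0.0867, and 0.0419 with the block) and Emc3 (-0.15, 0.0781 and 0.0238) passed too. That fit called 22.1% of all tested genes lower. From 5 genes picked for likeness, nothing is read from these counts. Emc3 also passed without fed replicate 4 (0.0433). For Aloxe3 they were Krt77, Lss, Urb1, Bbc3 and Pth1r, with r from 0.950 to 0.964. The shared order of libraries within a group follows from how these genes were selected. Krt77 encodes a keratin known from skin. It stood at 2.20, 2.41, 2.45 and 2.18 FPKM fed and at 2.25, 2.87, 2.12 and 1.74 FPKM fasted, with no step between the groups (log2 difference -0.04, limma adjusted p = 0.793).

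**Figure D2:**
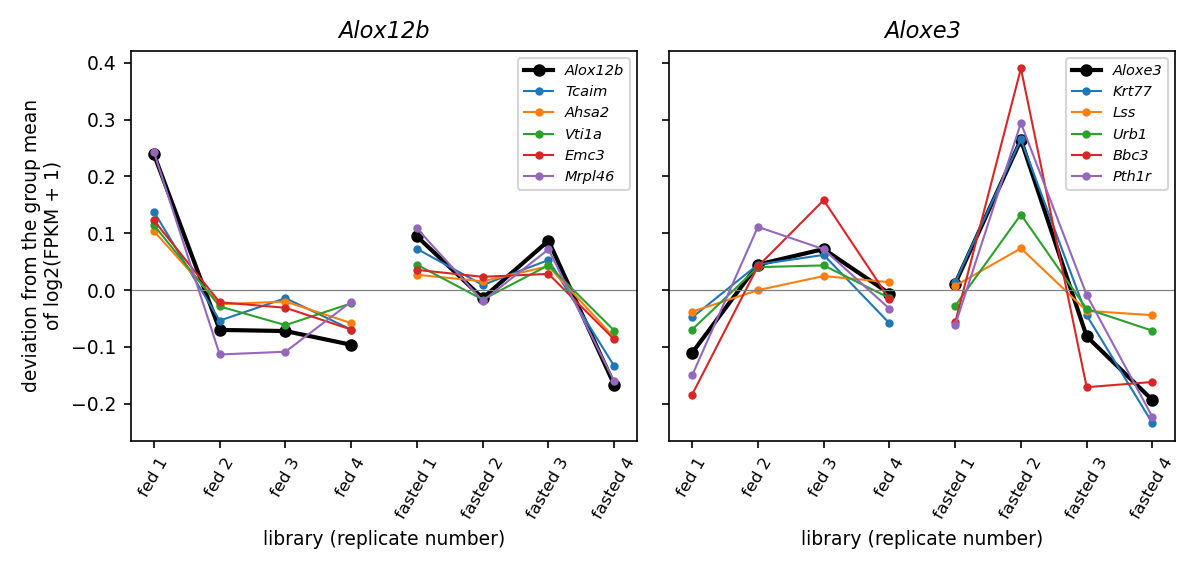
Deviation of each library (horizontal axis, replicate number within group) from its group mean in log2(FPKM + 1) (vertical axis) for Alox12b (left, black) and Aloxe3 (right, black) with the 5 most similar tested genes in colour; lines only join libraries of a group. The Alox12b set is highest in fed replicate 1 and the Aloxe3 set in fasted replicate 2, which the selection sets, and the deviations of the 2 genes correlate at -0.092.

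The other lipoxygenases were at 1.11 FPKM or less in every library. Alox8, which lies next to Alox12b on the opposite strand (14139 bp away) and encodes a lipoxygenase known from skin, was the only other family member to pass the filter. It stood at 1.09, 1.01, 0.878 and 0.849 FPKM fed and at 1.003, 0.951, 1.11 and 0.936 FPKM fasted. The groups overlapped, with a log2 difference of 0.03 (SE 0.0691, limma adjusted p = 0.754). Alox12, the platelet-type enzyme gene, was at 0.0831 to 0.180 FPKM fed and at 0.0161 to 0.0584 FPKM fasted, below the filter in all libraries. Alox5, the entry to leukotriene synthesis, was at 0.178 to 0.325 FPKM fed and 0.205 to 0.233 FPKM fasted. Alox12e was at 0.0583 FPKM or less in every library, and Alox15 was listed at 0 in all but fasted replicate 3.

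Around the pair, 27 of 38 other genes annotated within 250 kb had a row in the table (2 of them under an older symbol) and 20 passed the filter. Of these 1 rose and 6 fell (limma adjusted p under 0.05), where 9.56% of all tested genes were called higher and 16.3% lower. The median log2 difference was -0.07, against -0.02 over all tested genes. The share of higher among all called genes was 37%, and 47.5% after median-ratio and 48.4% after quantile scaling. The gene that rose was Per1, a repressor of the circadian clock and a target of glucocorticoid hormone, which ends 15935 bp before the start of Aloxe3. Per1 stood at 14.9, 19.6, 23.4 and 32.0 FPKM fed and at 34.3, 36.1, 41.6 and 39.5 FPKM fasted. The groups did not overlap, and the fed libraries were widely spread. Its log2 difference was 0.77 (SE 0.190, limma adjusted p = 0.0170). The call ended without fed replicate 2 (adjusted p = 0.0550) or fasted replicate 4 (adjusted p = 0.0561).

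Between Per1 and Aloxe3 lie Hes7, a transcriptional repressor of the segmentation clock in embryos, and 9130213A22Rik. The latter overlaps Hes7 on the opposite strand and is not among the genes with values. Hes7 was at 0.134 to 0.382 FPKM fed and at 0.112 to 0.276 FPKM fasted, under the filter. Reads from the overlap cannot be assigned to a strand, since the strand setting is not given. The 3 genes higher in fasted cortex are thus not consecutive. Within 100 kb, 10 of 15 annotated genes were in the table and 6 passed the filter. Among these Tmem107, which encodes a protein of the ciliary transition zone, fell from 3.50 FPKM ± 0.375 to 1.92 ± 0.324 (SD, n = 4 each; log2 difference -0.63, limma adjusted p = 8.63e-04). Vamp2, the synaptic vesicle protein gene, was at 692 and 669 FPKM (log2 difference -0.05, limma adjusted p = 0.622). Ctc1, of telomere replication, was at 0.06 (limma adjusted p = 0.575) and 2310047M10Rik, now Borcs6, at 0.13 (limma adjusted p = 0.273). The kinase gene Aurkb (at most 0.206 FPKM) and the guanylate cyclase gene Gucy2e (at most 0.491 FPKM) were under the filter, and Snord118 was listed at 0.

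Farther out, 5 genes fell. Slc25a35, a mitochondrial carrier gene, and Rangrf, which overlap on opposite strands, had log2 differences of -0.58 and -0.56 (limma adjusted p = 3.08e-04 and 0.00164). The strand setting of the libraries is not given in the sources used here, so their reads cannot be told apart where they overlap. Cyb5d1 and the centrosomal gene Cntrob were at -0.32 and -0.25 (limma adjusted p = 0.0104 and 0.0159). Arhgef15 was at -0.21 (limma adjusted p = 0.0468), a call that ended in each fit without 1 library other than fed replicate 4 (adjusted p from 0.0607 to 0.124), after either scaling (0.0560 and 0.0766), with no filter (0.0628) and when odd against even numbers entered the fit (0.0583).

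**Figure D3:**
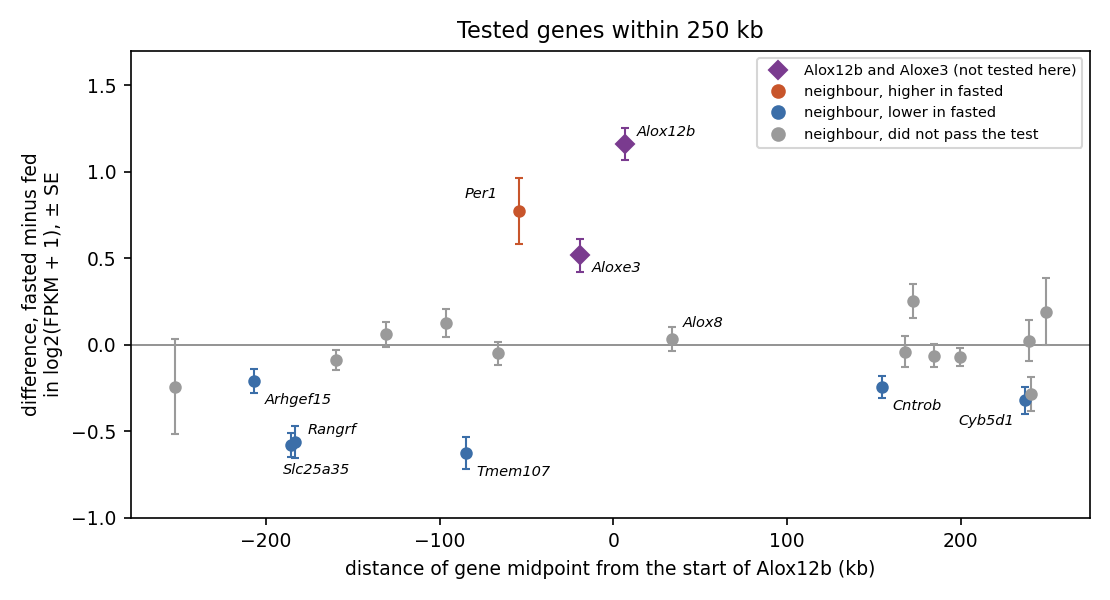
Difference between the groups in log2(FPKM + 1) ± SE (vertical axis) of the 22 tested genes around the pair against the distance of each gene's midpoint from the start of Alox12b in kb (horizontal axis); diamonds are Alox12b and Aloxe3, colours give the call. The pair and Per1 lie at 0.52 to 1.16, Alox8 lies at 0.03, and the 6 genes called lower lie on both sides at -0.63 to -0.21.

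Of the pair, Alox12b has a window in the RefSeq promoter table (GRCm38.p6). Its part upstream of the annotated GENCODE start, chr11:69156822-69156988 on the plus strand, is shown because the data bear on the level of this transcript. Capitals mark matches to the GC box GGGCGG on either strand.
Alox12b promoter: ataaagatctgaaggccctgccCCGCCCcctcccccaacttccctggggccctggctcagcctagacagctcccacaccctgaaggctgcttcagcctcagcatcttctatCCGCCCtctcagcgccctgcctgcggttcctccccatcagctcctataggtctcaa
The full window of 300 bases held 3 such matches, 2 of them in the printed part, and 35.7% of 32851 windows of that length held at least 1. Searched on both strands, the window held 0 matches to the E-box CACGTG of clock factors (in 7.15% of windows). It held 0 to the D-box TTATGTAA (0.938%), 0 to the glucocorticoid receptor half-site AGAACA (19%) and 0 to the AP-1 motif TGAGTCA (5.2%). Only this window was searched, so the counts say nothing of sites outside it. Aloxe3 has no entry there.

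Other genes act with the pair in the epidermis. Of 17 genes of acylceramide synthesis and the lipid envelope, 8 passed the filter, 1 rose and 1 fell (9.56% and 16.3% of all tested genes), with a median log2 difference of -0.02 (-0.02 over all tested genes). Elovl4, the elongase that makes very long fatty acids, rose from 19.3 FPKM ± 0.599 to 22.5 ± 1.48 (SD, n = 4 each; log2 difference 0.21, limma adjusted p = 0.0199). Ugcg, the glucosylceramide synthase gene, was at -0.17 (limma adjusted p = 0.0285). Each call ended without any one of 3 libraries, with adjusted p from 0.0511 to 0.0616 for Elovl4 (fed replicate 2, fasted replicates 1 and 3) and from 0.0737 to 0.0867 for Ugcg (fed replicate 3, fasted replicates 2 and 4). Ugcg was also at adjusted p = 0.0535 after median-ratio scaling. Of the 9 genes under the filter, Cyp4f39, Lipn and Casp14 were listed at 0 in all 8 libraries.

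Downstream of the pair, hydroperoxides and epoxyalcohols are handled by peroxidases and epoxide hydrolases. Of 10 such genes 7 were tested, 1 rose and 2 fell (9.56% and 16.3% of all tested genes), with a median log2 difference of -0.08. The 3 under the filter were Ephx3 (0.0423 to 0.178 FPKM fed, 0.0185 to 0.0465 fasted), Sdr9c7 (at most 0.0462) and Gpx2 (at most 0.0611). With the replicate number as a block 2 rose (14.3% of all tested genes), the addition being Ephx1, at 0.20 (limma adjusted p = 0.0629, and 0.0189 with the block). Ephx1 also passed after either scaling (adjusted p = 0.0144 and 0.0203). Ephx2, the soluble epoxide hydrolase gene, stood at 5.61, 6.46, 4.90 and 4.22 FPKM fed and at 3.08, 3.49, 3.63 and 3.09 FPKM fasted. It fell with no overlap, by 0.53 on the log2 scale (limma adjusted p = 0.00345). Gpx3, the secreted glutathione peroxidase gene, rose from 3.45 FPKM ± 0.217 to 4.50 ± 0.427 (SD, n = 4 each; log2 difference 0.31, limma adjusted p = 0.00939). Prdx6, a peroxiredoxin gene, was at -0.28 (limma adjusted p = 0.0384). That call ended without any one of fed replicates 1, 2 and 3 and fasted replicates 2, 3 and 4 (adjusted p from 0.0549 to 0.0978) and with no filter on low values (0.0692).

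Among 22 genes that supply arachidonate or lead it to other products, 16 were tested, 2 rose and 2 fell (9.56% and 16.3% of all tested genes), with a median log2 difference of -0.07. With the replicate block 3 rose (14.3% of all tested genes), the addition being the cyclooxygenase gene Ptgs2, at 0.44 (limma adjusted p = 0.0681, 0.00332 with the block and 0.0435 without fed replicate 4). Ephx1 and Ptgs2 were named after their values were seen. Pla2g4e, a cytosolic phospholipase gene known also for transferring acyl chains in the synthesis of endocannabinoid precursors, rose with no overlap. It stood at 2.83, 2.88, 3.30 and 2.25 FPKM fed and at 5.26, 5.66, 4.94 and 4.93 FPKM fasted, a log2 difference of 0.71 (SE 0.0849, limma adjusted p = 3.20e-04). Its relatives Pla2g4a (means 0.962 FPKM fed and 0.563 fasted) and Pla2g4b (1.01 and 0.479) were lower with no overlap, but were under the filter and not tested. Cyp2j9, a cytochrome P450 gene, rose by 0.40 (limma adjusted p = 0.00458). Ptges3, which encodes the HSP90 co-chaperone p23, fell by 0.30 (limma adjusted p = 0.00158). Hpgds, a prostaglandin D synthase gene, was at -0.23 (limma adjusted p = 0.0234), which ended without any one of fed replicates 1, 2 and 3 and fasted replicates 1 and 2 (adjusted p from 0.0530 to 0.0643) and after quantile scaling (0.0512).

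Pooled without repeats, the lists held 52 genes besides the pair, of which 32 were tested, 4 rose and 5 fell. That is a share of calls close to the 25.8% of all tested genes called in either direction. The median log2 difference was -0.06.

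**Figure D4:**
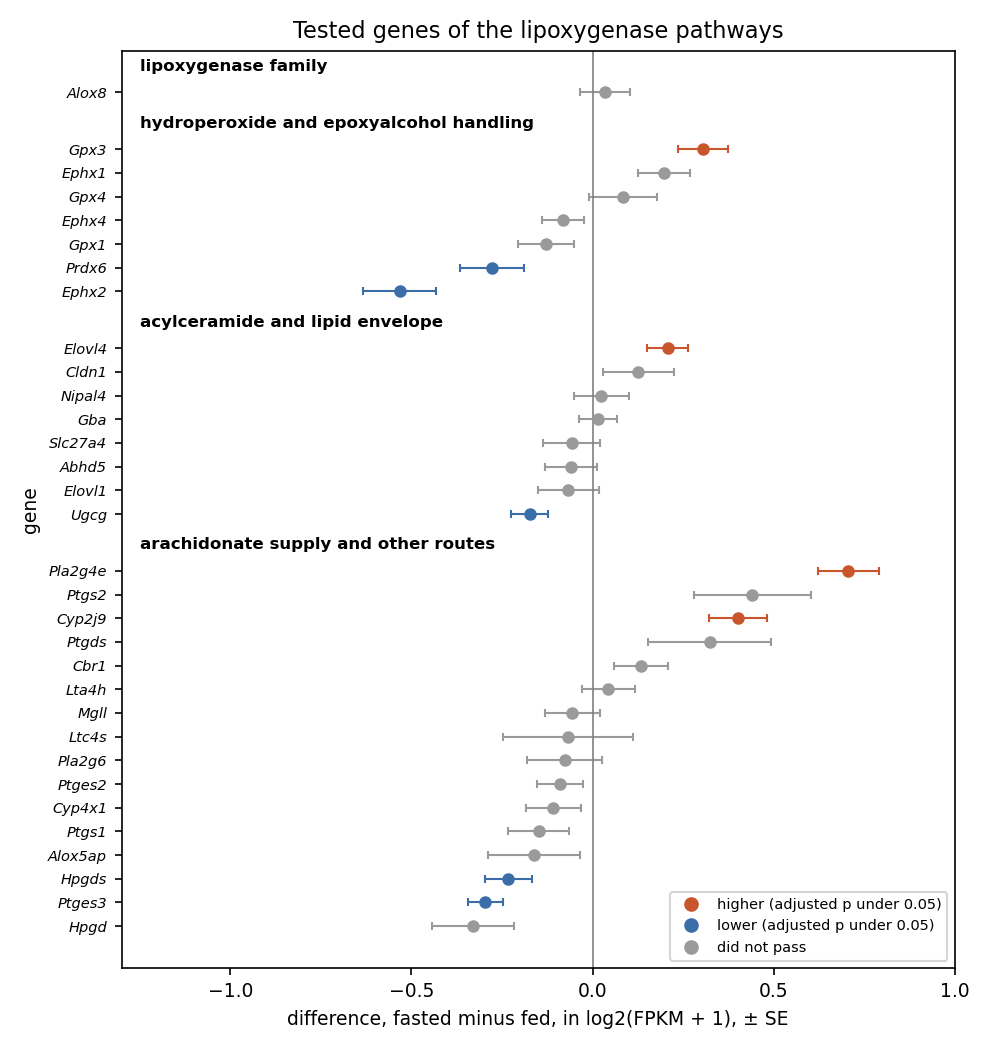
Difference between the groups in log2(FPKM + 1) ± SE (horizontal axis) of the tested genes in the lists of the lipoxygenase family, of hydroperoxide and epoxyalcohol handling, of the acylceramide and lipid envelope and of arachidonate supply (vertical axis, the pair left out); orange is called higher, blue lower and grey did not pass. Genes called higher and lower stand in each list but the first, where Alox8 did not pass, and the highest and lowest are Pla2g4e at 0.71 and Ephx2 at -0.53.

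Since both genes are known from skin, markers of keratinocytes were read in the same libraries. Of the 7 defining markers 6 were in the table, Flg being the one without a row, and none passed the filter. Ivl, a precursor of the cornified envelope, was listed at 0 in all 8 libraries, and the basal keratins Krt5 and Krt14 in all 4 fasted ones (at most 0.0470 and 0.0646 FPKM fed). The suprabasal keratins were present at low level. Krt1 was at 0.479 to 0.560 FPKM fed and 0.421 to 0.802 FPKM fasted, Krt10 at 0.865 to 1.23 FPKM fed and 0.778 to 0.901 FPKM fasted, and Lor, the envelope protein gene loricrin, at 0.625 to 1.16 FPKM fed and 0.633 to 1.08 FPKM fasted. The summed level of the defining markers was 2.16 to 2.78 FPKM fed and 1.89 to 2.79 FPKM fasted, so that the groups overlapped. Within the fasted group Krt1, Krt10 and Lor were each highest in replicate 2 (0.802, 0.901 and 1.08 FPKM), the library where Aloxe3 was highest. Within the fed group Aloxe3 was highest in replicate 3, and of these markers Krt10 alone was. This is a description, with no test.

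Over the whole list of 28 keratinocyte markers, 27 were in the table, 3 passed the filter and 1 rose (9.56% of all tested genes). The median log2 difference of the 3 tested genes was 0.30, against -0.02 over all tested genes. With the replicate block 2 rose (14.3% of all tested genes). The summed level was 10.4 to 13.1 FPKM fed and 12.4 to 16.9 FPKM fasted. Tgm3, a transglutaminase gene of the epidermis, rose from 1.13 FPKM ± 0.200 to 1.62 ± 0.182 (SD, n = 4 each; log2 difference 0.30, limma adjusted p = 0.0246). The call ended without any of fasted replicates 1, 2 and 4 (adjusted p = 0.0620, 0.0554 and 0.0606). Sbsn, which encodes suprabasin and was named after its values were seen, gave the largest part of the sum. It stood at 3.29, 3.64, 3.99 and 3.14 FPKM fed and at 4.49, 6.32, 4.07 and 4.07 FPKM fasted (log2 difference 0.33, limma adjusted p = 0.0513). It passed with the block (0.0201), with a pseudocount of 0.1 (0.0494), after either scaling (0.0304 and 0.0278) and without fasted replicate 4 (0.0425). Perp, also tested, was at 0.19 (limma adjusted p = 0.2565). Under the filter, Grhl3 (0.214 to 0.286 FPKM fed, 0.469 to 0.569 fasted) and Ppl (0.0605 to 0.112 fed, 0.126 to 0.1805 fasted) were higher with no overlap. Lgals7, also under the filter, was lower with no overlap (0.129 to 0.141 FPKM fed, at most 0.115 fasted). The part of keratinocyte transcripts in the levels of the pair was not tested.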

How the data were processed

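The members, gene lists and tests were chosen with earlier results of these data known. The deposited table holds 1 FPKM column per library (24883 rows). Per the submitters' processing notes, TopHat and mm10 were used; the sources used here do not name the TopHat version, the quantifying program, the annotation or any scaling. Of 282 symbols on several rows the row with the highest mean was used, which leaves 24344 symbols, and 23284 matched GENCODE M21 by current symbol. With limma (version 3.58.1, under R 4.3.3) log2(FPKM + 1) of the 12377 genes that reached 1 FPKM in at least 4 libraries was fitted with a group term alone, with empirical Bayes (trend, robust) and Benjamini-Hochberg adjustment over all genes, calls being at 0.05.

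Depth was estimated from FPKM times length in 5547 single-transcript genes, as the densest value between 0.025 and 0.09, taken as 1 fragment. A further peak lay at 2 fragments (45 to 58 genes per library, against 0 to 8 at 0.5 fragments), but the estimate is approximate. Tested on simulated data for fasted against fed (12377 genes, 200 changed), the fit recovered 4.5% of genes changed 1.2-fold, 94% changed 1.5-fold and 100.0% changed 2-fold. Unchanged genes called numbered 0, 14 and 9 in that order. The folds were of FPKM + 1, so these shares do not carry over to FPKM folds of low genes such as the pair. The simulated libraries were independent, and fewer genes were changed than were called in the data.

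Replicate numbers are shared between the groups. Deviations of same-numbered libraries from their group means correlated at 0.574, 0.496, 0.382 and 0.523 across genes, all over 0.1, and those of differently numbered ones at -0.546 to 0.381, so the numbers were taken to pair libraries; this rests on the values, since no label says so. Calls given without mention of another fit come from the group term alone, which leaves this pairing out. A fit with the number as a block was an alternative, beside another pseudocount, no filter, 2 scalings, a term for odd and even numbers, summed rows and leaving out each library.

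Named were the pair, the lipoxygenase family, defining keratinocyte markers, neighbours within 100 kb, called ones within 250 kb, up to 4 called genes of each other list (or the 2 with the smallest p), and the 5 genes most like each member on 2 measures. Ephx1, Ptgs2, Sbsn, Neurod6, Aldh1l1, Snap25, Pla2g4a and Pla2g4b were added after their values were seen. So were Perp, Grhl3, Ppl, Lgals7, Hbb-bs, Ephx3, Sdr9c7 and Gpx2. The counts of named genes given below leave out Pla2g4a, Pla2g4b, Perp, Grhl3, Ppl, Lgals7, Hbb-bs, Ephx3, Sdr9c7 and Gpx2. Sequence work used Python 3.11.15 and Biopython 1.88 (global alignment, match 2, mismatch -1, gap opening -5, extension -1). Proteins were not analysed here.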

Additional observations from a re-analysis of the deposited data

Results flagged for a closer look

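In 9 of 120 groups of 4 libraries, over the named genes with at least 0.5 FPKM, 1 library stood far from the other 3 (Dixon's gap over range past its 95% limit). Chance gives about 1 in 20 for genes chosen without regard to their libraries, but 4 of the 9 (Trp53inp1, Armcx5, Ttll3 and Emc3) are of genes chosen for their likeness to a member, to which that share does not apply. Alox12b in fed replicate 1 was at 1.69 FPKM, with the other fed libraries at 1.14 to 1.17. Without that library the log2 difference of Alox12b was 1.24. In the same library Alas2, a gene of heme synthesis in red cells, was at 2.29 FPKM (others 1.17 to 1.32) and Ttll3 at 1.82 (others 2.10 to 2.11). Lor in fed replicate 2 was at 1.16 FPKM (others 0.625 to 0.660), and Gfap, the astrocyte filament gene, in fed replicate 3 at 39.1 (others 34.7 to 35.4). Rangrf in fed replicate 4 was at 4.04 FPKM (others 5.47 to 5.69). In fasted replicate 4 Trp53inp1 was at 4.87 FPKM (others 5.18 to 5.22), Armcx5 at 17.0 (others 19.0 to 19.4) and Emc3 at 21.1 (others 22.8 to 23.0).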

How the results depend on the processing

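Both genes kept their direction in all 15 alternatives, but this is no support for the rise, for which they were chosen. With groups that do not overlap, leaving out 1 library or changing the pseudocount, filter or terms could not turn the sign. With a pseudocount of 0.1 the differences were 1.61 for Alox12b, 0.69 for Aloxe3 and 0.92 between them, which that scale makes larger for low genes. Leaving out 1 library gave 1.13 to 1.24, 0.43 to 0.58 and 0.59 to 0.76. Quantile scaling called 1788 genes higher, and 2 neighbours higher. With no filter on low values 8 listed pathway genes were lower, in a fit that tests more genes. Leaving out 1 library gave 841 to 1196 genes higher, 0 to 2 neighbours higher and 2 to 7 listed pathway genes lower, with 7 without fed replicate 4 and 2 without fed replicate 3 or fasted replicate 2; the cause was not tested. With the replicate number as a block 4506 genes were called, 8 neighbours (1 higher and 7 lower) and 11 listed pathway genes (6 higher and 5 lower). The other counts stayed within 1.5 times. Of 55 other genes named and tested, 33 kept call and direction throughout. The sign turned for 5 that were not called: Aldh1l1 (-0.033 to 0.062 over fits without 1 library), Krt77 (0.004 with quantile scaling, and -0.127 to 0.039 over fits without 1 library), Bbc3 (-0.175 to 0.012 over those fits), Acta1 (-0.046 to 0.062) and Hba-a2 (-1.132 to 0.391).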

Other observations

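Markers of other cell types that a cortex sample can hold were read beside the pair. Of 16 cortical cell type markers 0 rose and 5 fell (9.56% and 16.3% of all tested genes), and 2 rose with the replicate block (14.3% of all tested genes). The genes that fell were Aqp4, the astrocyte water channel gene (23.8 to 13.3 FPKM, limma adjusted p = 2.05e-05), the microglial P2ry12 (14.9 to 9.23 FPKM, limma adjusted p = 2.72e-05) and Cx3cr1 (11.2 to 6.46 FPKM, limma adjusted p = 1.14e-04), Gfap (36.0 to 29.6 FPKM, limma adjusted p = 0.0273) and the neuronal Neurod6 (39.7 to 34.0 FPKM, limma adjusted p = 0.0273). The third astrocyte marker of the list, Aldh1l1, had a log2 difference of 0.02 (limma adjusted p = 0.879), whose sign turned without fed replicate 3 or 4 or fasted replicate 1. Neurod6 and Aldh1l1 were named after their values were seen. The Gfap call ended without fed replicate 2 or 3 (adjusted p = 0.0523 and 0.0861) and with no filter on low values (0.0515). The Neurod6 call ended without any one of fed replicates 2 and 3 and fasted replicates 2 and 4 (adjusted p from 0.0592 to 0.0835) and after quantile scaling (0.0511).

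Of 9 fibroblast and meninges markers 7 were tested, 0 rose and 2 fell (9.56% and 16.3% of all tested genes). Their median log2 difference was -0.22, against -0.02 over all tested genes, and each of the 7 was below 0. Col1a1, a collagen gene, fell from 2.66 to 1.57 FPKM (limma adjusted p = 0.00752). Slc22a6, an anion transporter gene, was at -0.41 (limma adjusted p = 0.0291), lost without any one of fed replicates 2, 3 and 4 and fasted replicates 3 and 4 (adjusted p from 0.0508 to 0.0726) and with no filter on low values (0.0545). The summed level of this list was 20.02 to 31.7 FPKM fed and 14.3 to 25.1 FPKM fasted.

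Blood cell markers summed to 144 to 254 FPKM fed and 126 to 269 FPKM fasted. Of 3 tested genes 0 were called (25.8% of all tested genes), among them Alas2 (limma adjusted p = 0.542). Hba-a2 (limma adjusted p = 0.691), a globin gene with a near-identical copy, had uncertain values, with 0.00614 FPKM in fasted replicate 3. Hbb-bs, which was not tested, was at most 0.00366 FPKM fed. It stood at 6.35, 0.00254, 14.5 and 12.5 FPKM in fasted replicates 1 to 4, and the cause was not tested. Skeletal muscle markers summed to 3.67 to 5.21 FPKM fed and 4.22 to 5.21 FPKM fasted, with 1 gene tested, Acta1 (limma adjusted p = 0.936). Choroid plexus markers, none of which passed the filter, summed to 1.86 to 2.43 FPKM fed and 2.32 to 4.57 FPKM fasted. None of these lists held the pair, and their part in its levels was not tested.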
